A study of Mus musculus with 6 samples.

Results

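Rragd encodes RagD, a small GTPase of the lysosome, and its transcript was 29.6-fold higher in MAOA-KO than in control libraries of a mouse cell line. It is described here with 9 further genes of the same regulatory circuit: the Rag GTPase genes Rraga and Rragc, the transcription factor genes Tfeb, Tfe3 and Mitf, the folliculin gene Flcn with its partners Fnip1 and Fnip2, and Gpnmb. These 10 genes were taken by symbol from a table of 15836 genes, and each had 1 row. They were picked with their difference between the groups already known, so that their levels and fold changes below are a description and carry no test.

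RNA was sequenced from 6 samples of a mouse line that the labels name CAF, an abbreviation commonly used for cancer-associated fibroblast, from a pancreatic tumour. The 3 control samples have the genotype label wt, and the 3 MAOA-KO samples are labelled as a knockout of MAOA, the mitochondrial monoamine oxidase A that degrades serotonin, although another field calls them a knockdown group. No label says whether the line is 1 clone, how MAOA was disrupted or whether replicates are separate cultures, and no other allele or agent is listed for either group. P-values therefore measure only the spread between these samples, which may be technical.

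Rag GTPases work as pairs, RagA or RagB with RagC or RagD, and when amino acids are plentiful they bring mTORC1, a growth-promoting kinase complex, to the lysosome. Folliculin, bound to FNIP1 or FNIP2, acts on RagC and RagD and thereby lets mTORC1 phosphorylate TFEB, TFE3 and MITF, which then stay in the cytosol. Unphosphorylated, these MiT/TFE factors enter the nucleus and switch on genes of lysosomes and autophagy, and the genes of RagC, RagD, folliculin and its partners are themselves among their known targets. GPNMB, a membrane glycoprotein, is another target and is well known in melanocytes, osteoclasts and macrophages. Only transcript levels were measured here, not proteins, their phosphorylation or their place in the cell.

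Library totals ran from 18631359 to 26645441 counts, so that 3 counts amounted to between 0.110 and 0.156 CPM (counts over the TMM-adjusted size of each library), a floor that covers counting error only. All 13243 genes that passed a filter on low counts were fitted together in edgeR, and 73.9% of them were called at an adjusted p of 0.05, 37.0% higher and 36.9% lower in MAOA-KO, with a median log2 fold change of 0.0041 over all genes tested. The row named Maoa, with gene ID ENSMUSG00000025037, averaged 49.0 CPM in control and 24.9 CPM in MAOA-KO libraries. However, it lists a locus on chromosome 19 that is not that of Maoa in the annotation, so it does not check the labels. The rows of all 10 genes described here list the annotated locus and strand. Of 12 fibroblast markers Lum had no row and 7 were tested, of which 2 were called higher and 4 lower. The list had a summed level of 3497 to 3642 CPM in the controls and 1947 to 2003 CPM in MAOA-KO, nearly all of it Vim. Col1a2, Dcn, Fap and Thy1 were not tested and averaged 0.111, 0.224, 0.279 and 0.365 CPM in the controls. Pdpn, at 0.591 CPM there, did not pass. Acta2 rose from 30.9 to 45.9 CPM and Col3a1 had 120.5 and 128.7 CPM, a call lost in DESeq2, whereas Pdgfra, at 1.30 CPM in the controls, Col1a1, at 1.60 CPM, and Pdgfrb, at 2.02 CPM, fell. Vim fell from 3426 ± 73.8 to 1789 ± 30.1 CPM (mean ± SD, n = 3 each). Of 7 epithelial markers Krt19, Krt8, Krt7 and Krt18 fell, from 351, 864, 13.6 and 927 CPM in the controls, while Epcam averaged 0.349 CPM and Cdh1 2.68 CPM there. The summed level of the list was 2102 to 2232 CPM in control and 1213 to 1284 CPM in MAOA-KO libraries. What part these marker differences have in the results below was not tested, and fewer cells of a kind cannot be told apart from less RNA per cell in such bulk samples.

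Rragd lies on chromosome 4 at 32983037 to 33022180, plus strand, in GRCm38.p6 (ENSMUSG00000028278). It had 66, 100 and 110 counts in control replicates 1, 2 and 3, against 2545, 3091 and 2205 in MAOA-KO replicates 1, 2 and 3. Scaled by library, these were 2.86, 4.19 and 4.51 CPM in control and 116.6, 113.0 and 115.0 CPM in MAOA-KO libraries. Every MAOA-KO library thus held far more Rragd than any control, and within MAOA-KO the libraries differed little. Group means were 3.85 ± 0.872 and 114.9 ± 1.83 CPM, with a log2 fold change of 4.89 ± 0.08 (SE), the sixth highest of all genes tested. Without any 1 library the log2 fold change lay between 4.72 and 5.01. In the controls the transcript was scarce but above the floor, and replicate 1 was the lowest, its exact 95% Poisson interval of 2.22 to 3.64 CPM lying below that of replicate 3, 3.70 to 5.43 CPM.

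Rragc, the paralog of Rragd on the same chromosome (123917446 to 123936997, plus strand, ENSMUSG00000028646), was abundant in both groups. It had 171, 164 and 162 CPM in control and 229.0, 237 and 226 CPM in MAOA-KO libraries. The groups did not overlap, and the difference was small beside that of Rragd, with a log2 fold change of 0.48 ± 0.04. Rraga encodes RagA, the partner of either protein, and is a gene of 1 exon on chromosome 4 (86575668 to 86577285, plus strand, ENSMUSG00000070934). Its levels were 79.2, 78.9 and 76.7 CPM in control and 67.2, 66.0 and 64.7 CPM in MAOA-KO libraries. Rraga was thus slightly lower in each MAOA-KO library, with a log2 fold change of -0.25 ± 0.04, which was -0.16 with library totals as the only scaling. The gene of RagB, Rragb, had no row in the table used here.

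**Figure D1:**
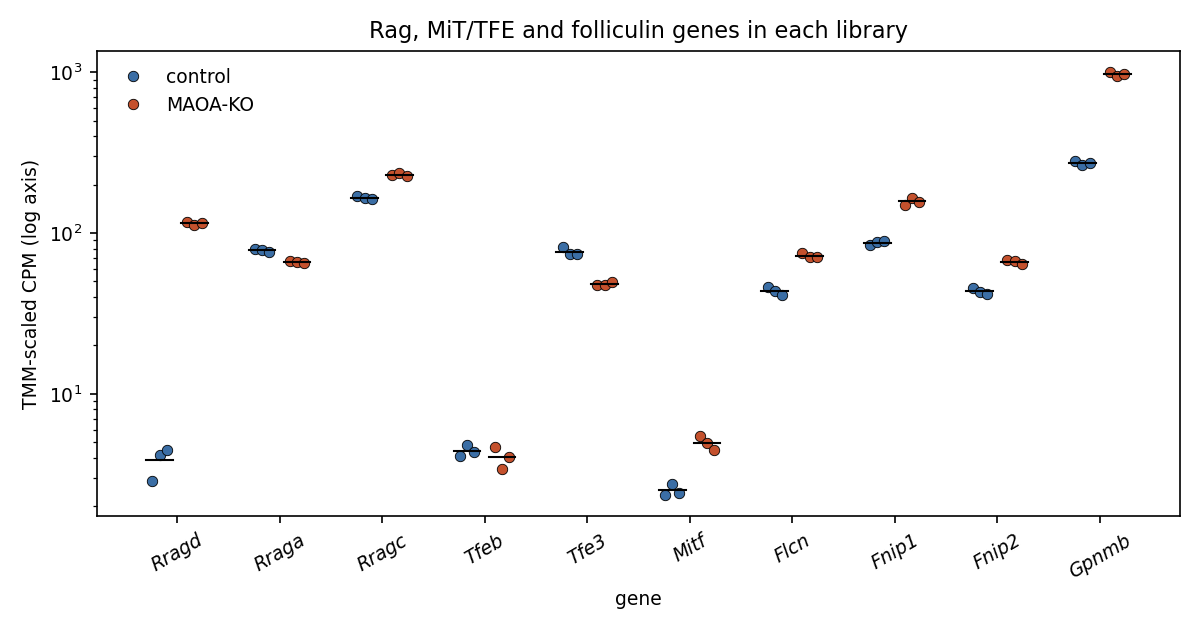
TMM-scaled CPM (log axis) of the 10 genes in each of the 3 control and 3 MAOA-KO libraries, with points for libraries in replicate order and bars for group means. Rragd moved from 3.85 to 114.9 CPM, whereas Tfeb overlapped between groups.

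Levels of different genes can be compared only per length, for which the authors' FPKM values (counts scaled by gene length and library total, without TMM) were used. Ratios of FPKM between MAOA-KO and control therefore run slightly higher than the fold changes of the fit. RagC and RagD transcripts made up a pool whose composition differed between groups. Rragd was 0.861%, 1.31% and 1.42% of the summed Rragc and Rragd FPKM in the controls and 20.9%, 19.8% and 20.9% in MAOA-KO, so Rragc remained the more abundant of the pair in each library. The sum itself was 62.7 ± 1.59 FPKM in the controls and 115.2 ± 1.96 FPKM in MAOA-KO (n = 3 each), 1.84 times as high. In FPKM, Rragc went from 61.9 to 91.6 and Rragd from 0.746 to 23.6, while Rraga had 46.9 and 42.0. The FPKM length of Rragd equalled that of transcript Rragd-203 (5008 bases, 7 exons), and that of Rragc equalled Rragc-201 (2593 bases, 7 exons). Aligned from end to end, their coding sequences were 76.2% identical over 1151 aligned bases, and the longest stretch shared by both transcripts was 20 bases.

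**Figure D2:**
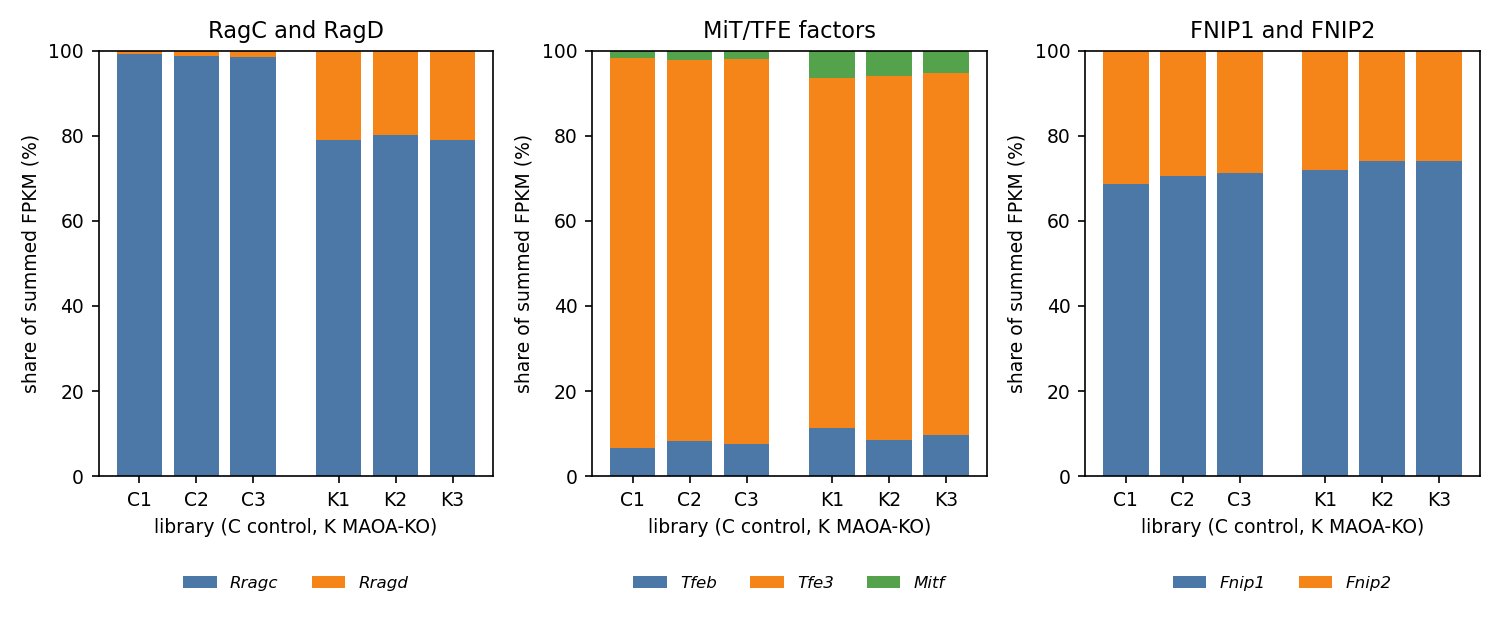
Share of each paralog in the summed FPKM of its family (percent, bars stacked to the whole) in control (C1 to C3) and MAOA-KO (K1 to K3) libraries. Rragd filled 0.861% to 1.42% of the RagC and RagD pool in the controls and 19.8% to 20.9% in MAOA-KO, and Tfe3 made up most of the MiT/TFE sum in all 6 libraries.

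The start regions of Rragd, Rragc and Fnip1 are shown because MiT/TFE factors are known to bind E-boxes, and the latter genes were the only ones of the 10 with a CACGTG E-box in these windows. The windows cover 250 bases before to 50 after a RefSeq gene start (GRCm38.p6), capitals mark CACGTG, and all are on the plus strand, at chr4:32982748-32983047 for Rragd, chr4:123917183-123917482 for Rragc and chr11:54437929-54438228 for Fnip1.
Rragd: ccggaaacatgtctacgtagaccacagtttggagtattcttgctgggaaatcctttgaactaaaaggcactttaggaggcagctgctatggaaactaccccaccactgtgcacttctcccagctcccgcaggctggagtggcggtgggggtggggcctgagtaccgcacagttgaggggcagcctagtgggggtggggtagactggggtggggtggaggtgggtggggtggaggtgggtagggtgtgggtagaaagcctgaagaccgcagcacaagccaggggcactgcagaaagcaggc
Rragc: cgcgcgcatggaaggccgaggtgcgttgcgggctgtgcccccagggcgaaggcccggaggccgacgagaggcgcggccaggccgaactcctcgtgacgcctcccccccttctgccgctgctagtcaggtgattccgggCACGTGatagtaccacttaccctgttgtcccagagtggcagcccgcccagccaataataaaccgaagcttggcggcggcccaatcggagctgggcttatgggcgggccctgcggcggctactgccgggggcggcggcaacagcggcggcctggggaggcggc
Fnip1: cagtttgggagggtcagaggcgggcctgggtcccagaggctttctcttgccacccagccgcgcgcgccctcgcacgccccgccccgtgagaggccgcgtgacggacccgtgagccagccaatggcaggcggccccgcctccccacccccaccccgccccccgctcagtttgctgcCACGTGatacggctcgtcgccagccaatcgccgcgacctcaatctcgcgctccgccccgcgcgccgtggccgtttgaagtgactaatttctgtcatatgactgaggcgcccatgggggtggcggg

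The E-box began 112 bases before the start of Rragc and 75 bases before that of Fnip1, and in both it was followed by AT. All 10 genes had at least 1 window, 15 windows in all, and 2 of the 15 held CACGTG, a palindrome that reads the same on both strands. Of 13129 windows of protein-coding genes in the table, 9.62% held it. The longer GTCACGTG, which contains CACGTG, and TCATGTG, an M-box core known from MITF targets, were each searched on both strands and found in 0 of the 15 windows, against 3.90% and 2.08% of the 13129. For comparison, GTCACGTG stood in 13 of 32 windows of the CLEAR network genes named below, a list that was itself partly defined by such sites. The Rragd window held none of the 3 motifs, which says only that these letters are not in it.

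Among the MiT/TFE factors, Tfe3 was lower, Mitf higher and Tfeb overlapping between the groups. Tfe3 lies on chromosome X at 7762560 to 7775202, plus strand (ENSMUSG00000000134), and encodes a factor that is widely expressed. It had 81.4, 73.7 and 73.8 CPM in control and 47.5, 47.4 and 49.5 CPM in MAOA-KO libraries, and its log2 fold change was -0.67 ± 0.05. All 3 MAOA-KO libraries lay below all controls, by more than the spread within either group.

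Mitf, on chromosome 6 at 97807052 to 98021349, plus strand (ENSMUSG00000035158), encodes the family's regulator of melanocytes and osteoclasts and was scarce. Control libraries held 54, 66 and 59 counts and MAOA-KO libraries 119, 136 and 86, which gave means of 2.51 ± 0.226 and 4.97 ± 0.485 CPM. The groups did not overlap, and the log2 fold change was 0.99 ± 0.13. Tfeb, on chromosome 17 at 47737030 to 47792419, plus strand (ENSMUSG00000023990), encodes the factor best known for lysosome biogenesis. It was similarly scarce, with 95, 114 and 106 counts in control and 102, 93 and 78 in MAOA-KO libraries. The CPM of Tfeb overlapped, at 4.12 to 4.78 in the controls and 3.40 to 4.67 in MAOA-KO, and the log2 fold change of -0.14 had a 95% interval of -0.41 to 0.12. That interval spans both directions, so no direction is read for Tfeb. Its width reflects the low counts as well as the spread between libraries.

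Per length, Tfe3 was the dominant member of the family in each library. It made up 91.7%, 89.6% and 90.6% of the summed FPKM of Tfeb, Tfe3 and Mitf in the controls and 82.3%, 85.4% and 85.1% in MAOA-KO. The Mitf share went from 2.01% ± 0.243 to 5.84% ± 0.606, and the Tfeb share was 7.36% ± 0.818 and 9.89% ± 1.38. The sum of the 3 was 24.9 ± 1.19 FPKM in the controls and 18.0 ± 0.505 FPKM in MAOA-KO, 0.721 times as high. These shares rest on 1 length per gene, which for Mitf is that of transcript Mitf-202 (4881 bases), 1 of 8 annotated, and other Mitf transcripts are shorter. The fourth factor of the family, Tfec, had no row in the table used here.

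The folliculin complex genes were all higher in MAOA-KO. Flcn, on chromosome 11 at 59791408 to 59810016, minus strand (ENSMUSG00000032633), had 46.5, 43.5 and 41.1 CPM in control and 74.7, 70.9 and 70.6 CPM in MAOA-KO libraries. Fnip1, on the same chromosome at 54438199 to 54518235, plus strand (ENSMUSG00000035992), had 84.7, 87.9 and 88.7 CPM in control and 149, 166 and 157 CPM in MAOA-KO libraries. Fnip2, on chromosome 3 at 79455974 to 79567796, minus strand (ENSMUSG00000061175), had 45.3, 42.8 and 41.9 CPM in control and 67.7, 67.4 and 64.3 CPM in MAOA-KO libraries. No library of one group reached the range of the other in any of these genes, as was so for 75.1% of all genes tested. The log2 fold changes were 0.72 ± 0.05 for Flcn, 0.85 ± 0.04 for Fnip1 and 0.62 ± 0.05 for Fnip2, that is 1.65-fold, 1.81-fold and 1.53-fold. Fnip1 made up 70.1% ± 1.36 of the summed FNIP FPKM in the controls and 73.4% ± 1.18 in MAOA-KO, so the balance between the paralogs differed far less than that between Rragc and Rragd. The summed FNIP level went from 19.3 ± 0.0841 to 35.3 ± 1.23 FPKM, 1.83 times as high.

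**Figure D3:**
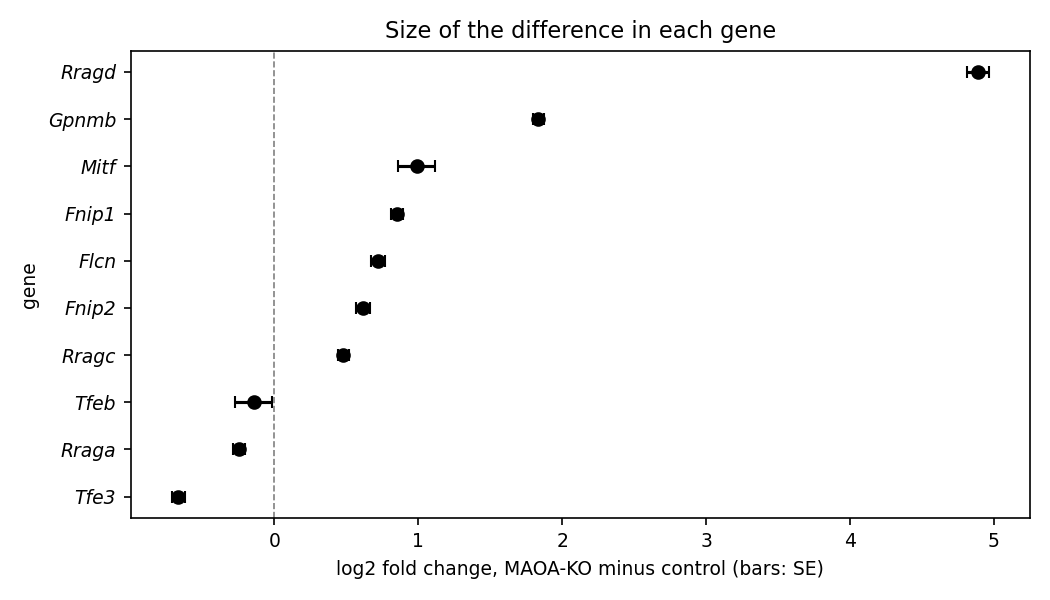
Log2 fold change of MAOA-KO over control for the 10 genes, points with SE bars from the edgeR fit. Rragd stands at 4.89, Gpnmb at 1.83, the folliculin complex genes between 0.62 and 0.85, and Tfe3 at the other end at -0.67.

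Gpnmb lies on chromosome 6 at 49036546 to 49070929, plus strand (ENSMUSG00000029816). It was the most abundant of the 10 genes in both groups, with 282, 266 and 272 CPM in control and 1004, 946 and 974 CPM in MAOA-KO libraries. The levels were tight within groups and far apart between them, with a log2 fold change of 1.83 ± 0.04, or 3.57-fold. Per length, its mean of 109 FPKM in the controls exceeded that of 94.9% of the protein-coding rows, and its 413 FPKM in MAOA-KO that of 98.8%.

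Gpnmb and Mitf are also genes of pigment cells, osteoclasts and macrophages, whose markers were therefore read beside them. Of 18 melanocyte genes linked to MITF, 11 had no row, among them Tyr, Tyrp1, Dct and Mlana. Of the 4 tested, 3 were called higher and 1 lower, against 37.0% and 36.9% of all genes tested. Bcl2 rose from 50.5 to 73.1 CPM and Met from 183 to 244 CPM, and Cdk2 fell from 44.9 to 36.5 CPM. The pigment gene Pmel had 0.435 CPM in control and 0.772 CPM in MAOA-KO libraries. Its call was lost in DESeq2 and without control replicate 1 or 3 or MAOA-KO replicate 1. Of 19 macrophage and osteoclast markers 12 had no row, among them Ptprc, Csf1r, Calcr and Oscar. The summed level of the remaining 7 was 2249 to 2475 CPM in control and 2110 to 2346 CPM in MAOA-KO libraries, nearly all of it Spp1, a secreted phosphoprotein gene. The osteoclast genes Ctsk and Acp5 were low, at 0.154 and 2.12 CPM in control and 0.488 and 2.88 CPM in MAOA-KO libraries, and the macrophage receptor gene Trem2 rose from 0.690 ± 0.209 to 1.77 ± 0.192 CPM (edgeR adjusted p = 1.24e-05). The macrophage marker Cd68 was not low, with 53.0 ± 2.47 CPM in control and 46.2 ± 1.99 CPM in MAOA-KO, nor was Cd14, with 26.0 ± 0.767 and 25.2 ± 1.84 CPM, and the receptor gene Tnfrsf11a had 1.17 and 1.29 CPM. The part of such cells in the level of Gpnmb was not tested.

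Taking all 10 genes, 9 were called in the fit over all genes, 7 higher and 2 lower, and the same 9 did not overlap between groups. Calls were made for 73.9% of all genes tested, and the groups did not overlap for 75.1%, 37.7% higher and 37.5% lower. As the genes were chosen from this contrast, nothing is read from their count. Their median log2 fold change was 0.67. In order of FPKM, the controls ran from Gpnmb through Rragc, Rraga, Tfe3, Fnip1, Flcn, Fnip2, Tfeb and Rragd to Mitf. In MAOA-KO the order was Gpnmb, Rragc, Rraga, Fnip1, Rragd, Flcn, Tfe3, Fnip2, Tfeb and Mitf. Rragd moved from rank 9 to rank 5 and Tfe3 from rank 4 to rank 7. No library of one gene overlapped its neighbour in either order, and each gap between neighbours exceeded the sum of their SDs, the narrowest being those between Fnip1 and Flcn and between Rragd and Mitf in the controls and those on either side of Rragd in MAOA-KO.

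Genes around the Rag proteins moved in both directions, and all 5 Ragulator genes rose. The lists used here were drawn up with earlier results of these data known, and their counts are given beside the 37.0% of all tested genes that were higher and 36.9% that were lower. With library totals as the only scaling 5759 of all genes were called higher and 4044 lower. All 5 Ragulator genes, which encode the lysosomal anchor of the Rag proteins, rose (median log2 fold change 0.49). Lamtor1 and Lamtor4 rose by 0.58 ± 0.05 and 0.57 ± 0.07, Lamtor3 by 0.49 ± 0.04, Lamtor5 by 0.39 ± 0.05 and Lamtor2 by 0.18 ± 0.05 (adjusted p at most 0.00144 in edgeR). Of 21 tested regulators of the Rag proteins 11 rose and 8 fell (median log2 fold change 0.16), or 12 and 6 with library totals only. The leucine and stress sensors of the sestrin family split, as Sesn3 rose from 49.8 ± 1.09 to 102.1 ± 5.05 CPM and Sesn1 from 8.26 ± 0.698 to 15.7 ± 1.51 CPM, while Sesn2 fell from 73.9 ± 4.78 to 49.9 ± 1.69 CPM (adjusted p = 1.32e-16, 5.95e-10 and 1.36e-10). Castor2, a member of the family of arginine sensors, rose from 17.9 ± 1.55 to 33.6 ± 1.95 CPM, and Castor1 of the same family fell from 6.27 ± 0.790 to 3.87 ± 0.235 CPM (adjusted p = 2.89e-12 and 1.07e-05 in edgeR).

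In the mTORC1 and RHEB arm, where Rag signals meet growth factor signals, 4 of 13 tested genes rose and 8 fell (median log2 fold change -0.18). With library totals as the only scaling 4 were higher and 5 lower, as Mlst8, Rhebl1 and Rps6kb1 lost their calls. Mtor itself had 77.1 ± 1.87 and 72.9 ± 2.38 CPM and did not pass (adjusted p = 0.0886). Deptor, an inhibitor of mTOR, fell from 52.5 ± 3.47 to 22.1 ± 1.33 CPM, and Rheb, the GTPase that activates mTORC1, from 205 ± 8.93 to 147 ± 5.75 CPM. Tsc1, a subunit of the complex that turns RHEB off, rose from 43.0 ± 0.805 to 74.1 ± 0.897 CPM. Eif4ebp1, a translation repressor that mTORC1 phosphorylates, fell from 231 ± 7.76 to 153 ± 8.42 CPM (adjusted p at most 1.20e-10 for these 4 genes in edgeR). Its paralog Eif4ebp2 went the other way, from 118 ± 3.69 to 166 ± 8.94 CPM. Beside Tsc1, Tsc2 rose from 63.2 ± 3.29 to 74.8 ± 1.53 CPM, whereas Tbc1d7 fell from 15.0 ± 0.442 to 10.8 ± 0.0847 CPM.

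Of 17 genes that govern where MiT/TFE factors reside, 4 rose and 9 fell (median log2 fold change -0.13). With library totals as the only scaling 5 were higher and 7 lower, as Ppp3cc and Xpo1 lost their calls and Sfn gained one. Mcoln1, the lysosomal calcium channel upstream of the phosphatase calcineurin that acts on TFEB, rose from 36.1 ± 0.823 to 67.4 ± 1.44 CPM. It is also counted in the CLEAR list below. Genes of 14-3-3 proteins, which hold phosphorylated TFEB and TFE3 in the cytosol, were mostly lower: Ywhag fell from 625 ± 17.3 to 420 ± 17.4 CPM, Ywhah from 175 ± 5.40 to 123 ± 3.79 CPM and Ywhae from 635 ± 3.18 to 478 ± 7.61 CPM (adjusted p at most 4.70e-11). Ywhaq went the other way, from 282 ± 1.23 to 369 ± 7.85 CPM.

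Known targets of these factors were mostly higher. Of 36 tested genes of the CLEAR network, the lysosomal and autophagy genes with MiT/TFE sites, 32 rose and 3 fell (median log2 fold change 0.85). Those with the lowest p-values were the lysosomal enzymes Tpp1, Hexa and Gla and the membrane protein Lamp1, with log2 fold changes of 1.58, 1.45, 1.90 and 1.24. By size the cathepsin gene Ctsf came first, with 0.587 ± 0.184 and 5.08 ± 0.159 CPM and a log2 fold change of 3.10 ± 0.18. The autophagy gene Wipi1 fell by 0.57 ± 0.05 and the autophagy receptor Sqstm1 by 0.15 ± 0.03, and Galns did not pass. The third, Glb1, fell by 0.11 ± 0.04 and lost its call without control replicate 1 (-0.089) or MAOA-KO replicate 2 (-0.11) or 3 (-0.096), and both Glb1 and Sqstm1 lost it with library totals only (-0.028 and -0.065). Of 13 other genes reported to respond to MiT/TFE factors, 2 of them also in the CLEAR list, 10 rose and 2 fell, or 1 with library totals only, where Sqstm1 lost its call. Asah1, an acid ceramidase, rose from 374 ± 10.5 to 849 ± 25.1 CPM, Uap1l1 from 125 ± 5.15 to 214 ± 13.4 CPM and Neu1, a lysosomal sialidase, from 36.3 ± 1.80 to 91.8 ± 5.55 CPM (adjusted p at most 4.15e-14 in edgeR). Gdf15, a stress cytokine, fell from 1.33 ± 0.212 to 0.341 ± 0.0424 CPM.

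**Figure D4:**
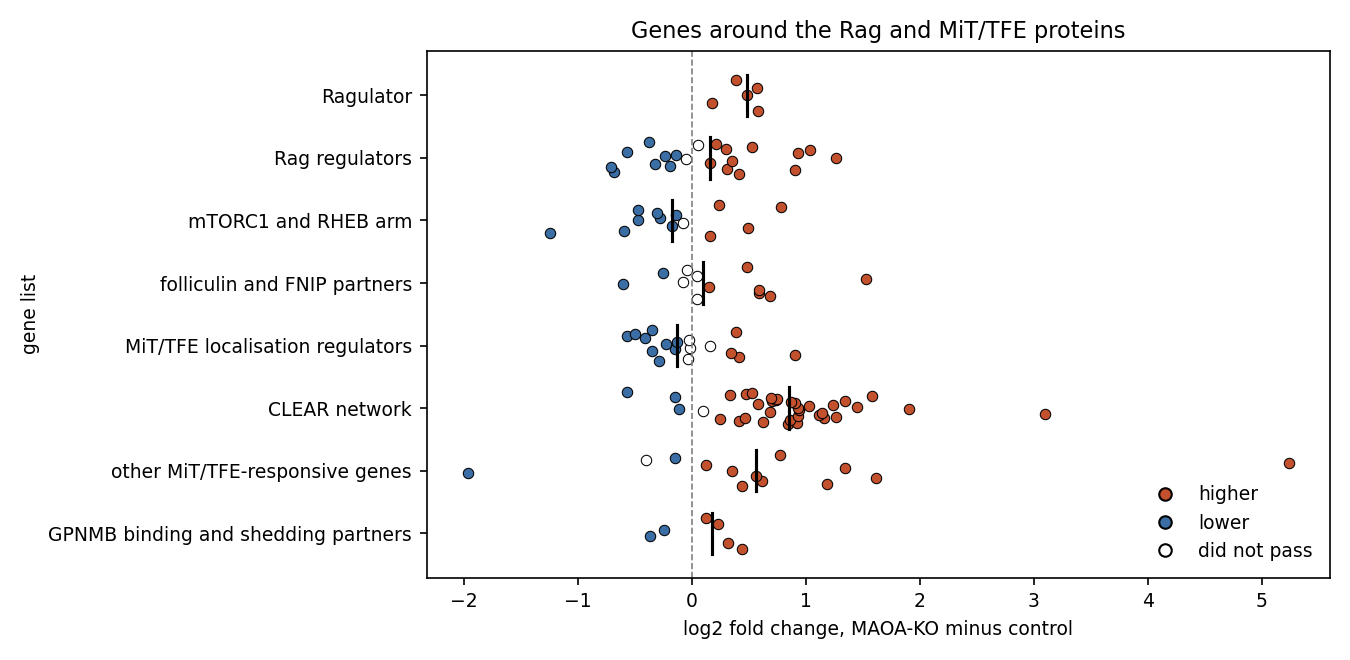
Log2 fold change of MAOA-KO over control for each tested gene of 8 lists around the Rag and MiT/TFE proteins, coloured by call (edgeR adjusted p under 0.05), with a bar at each list's median. The CLEAR network lies mostly right of 0 with a median of 0.85, and the mTORC1 and RHEB arm is spread around a median of -0.18.

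Among 10097 protein-coding genes with at least 5 CPM in the higher group, those whose profile over the 6 libraries came closest to that of Rragd were named. The measure was the root mean square difference in log2 CPM after centring on the control mean. For it, 2 counts were added to each count before the log, which shrinks differences of scarce genes. The nearest was Ppargc1a, a coactivator of mitochondrial genes and a listed MiT/TFE-responsive gene, at 0.323, with 0.393 ± 0.108 CPM in control and 15.0 ± 1.08 CPM in MAOA-KO libraries. C1s1, a complement protease gene, followed at 0.750, and 2310057J18Rik, of which no role is given here, at 0.927. The protease gene Adamts9, the prostaglandin D synthase gene Ptgds and the complement gene C4b came next, at 0.984 to 1.01. Clca3a1 and Cp, the latter encoding the copper-carrying oxidase ceruloplasmin, ended the 8 at 1.17 and 1.18. A gap separates Ppargc1a from the rest, and the 6 libraries fall into 2 groups, so this likeness is a description. Rragd remained more abundant than Ppargc1a in both groups, at 114.9 against 15.0 CPM in MAOA-KO, although CPM are not scaled by length.

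**Figure D5:**
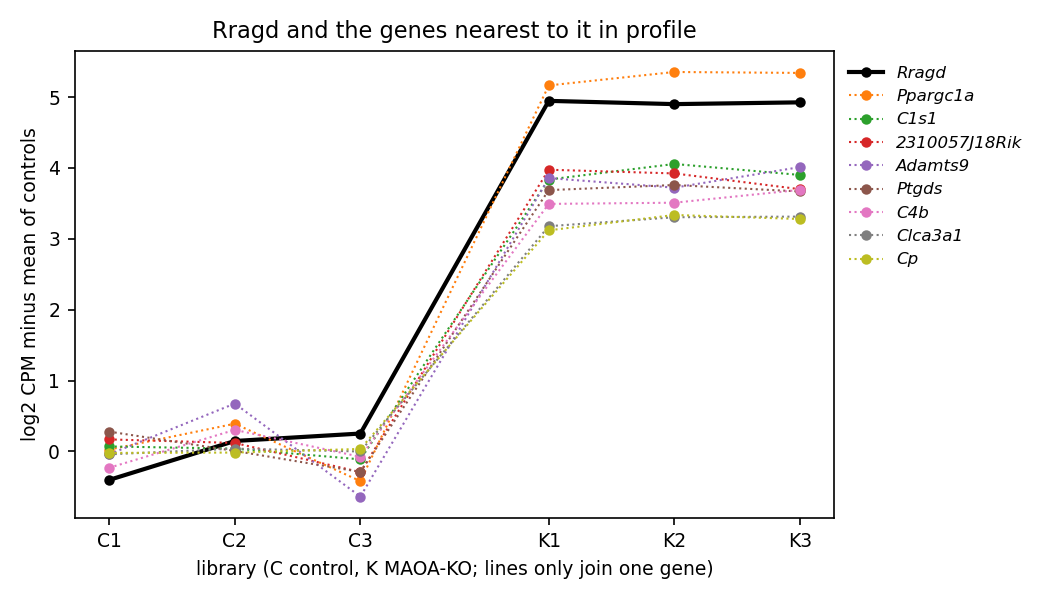
Log2 CPM minus the mean of the controls for Rragd (solid line) and the 8 genes nearest to it, in control (C1 to C3) and MAOA-KO (K1 to K3) libraries. The CPM are drawn without the 2 counts added for the likeness measure. Only Ppargc1a of the 8 lies above Rragd in MAOA-KO, and the other 7 lie below it.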

How the data were processed

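The authors deposited a table of 15836 genes with whole-number read counts and FPKM for each of 6 libraries, per the file headers. Its further columns, per the file headers, are the authors' own comparison as log2 fold change, p-value, adjusted p-value and −log10 of both, and were not used for any value. The submitters' processing notes name mm10 as build, and a column header names GRCm38.p6. For aligner, counting tool, read length and strand, nothing is given in the sources used here. Per the labels, the protocol was for a small RNA library, whereas the table is one of mostly protein-coding genes. Each row totals at least 10 counts.

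Counts were fitted with edgeR 4.0.16 in R 4.3.3 (filterByExpr, TMM factors of 0.968 to 1.03, robust quasi-likelihood test of group, Benjamini-Hochberg adjustment over 13243 genes at 0.05). Standard errors were taken as the log2 fold change over the root of F. CPM are scaled by TMM factors, with SDs over 3 libraries. The members, the 13 gene lists and the tests were chosen with earlier results of these data known. Genes named were all members, up to 4 called genes of each list by lowest p and any others that a small count needs, and the 8 genes nearest to Rragd. Further list genes were named after their values were seen: Ywhaq, Castor1, Ctsf, Mlst8, Rhebl1, Rps6kb1, the cell type markers and Gdf15. So were Eif4ebp2, Tsc2, Tbc1d7, Hsp90aa1, Fem1b and the AMPK subunit genes. The implied FPKM length of each member matched 1 transcript of GENCODE M21 within 0.05%. Promoter windows are from RefSeq (GRCm38.p6). Replicate pairs within a group differed by more than counting error (mean chi-square per gene 2.01 to 4.59) and were kept as separate samples. The test was checked on simulated counts. Alternatives were DESeq2 1.42.0, other scalings, no filter, a replicate block, a test against a 1.2-fold change and leaving out each library.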

Additional observations from a re-analysis of the deposited data

How the results depend on the processing

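Of 110 repeats of the log2 fold changes of the 10 genes under 11 alternatives, 0 changed sign, and 7 moved by more than the spread between replicates, all with library totals only. That scaling raised each of the 10 by a near-constant amount (Gpnmb 1.92, Fnip1 0.94, Flcn 0.81, Fnip2 0.70, Rragc 0.57, Rraga -0.16, Tfe3 -0.58), by construction. Without 1 library Rragd lay between 4.72 and 5.01 and Tfeb between -0.26 and -0.0092. Over all genes, 9781 were called, 4900 higher and 4881 lower, and with library totals only 5759 higher and 4044 lower. The stricter null of a 1.2-fold change left 6079 genes, of which 3120 were higher and 2959 lower. Leaving out 1 library gave 9357 to 9772 genes, and DESeq2 called 9111. The replicate block called 10205 genes. Same-numbered samples deviated together with correlations over genes of 0.0889, 0.0589 and 0.0334, under 0.1, and control replicate 3 correlated best with MAOA-KO replicate 2 (0.0376), so the numbers were not taken to pair the samples. Under the block Mtor and Prkaa1 gained a call. Of 1617 repeats of 147 other genes, 1559 kept their side of the threshold, 49 lost the call and 9 gained it. Of these repeats, 0 reversed the direction of a called gene. Genes that were not called could change sign, as Mtor, Prkaa1, Nprl3, Ppp3r1, Ywhab, Gsk3b, Prkag1 and Cd14 did with library totals only. Of the 8 genes nearest to Rragd at least 6 remained in each alternative run for them, which leaves out DESeq2, the block and the 1.2-fold test. Depth limits Mitf, Tfeb and control Rragd most, with 54 to 136 counts per library.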

Other observations

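Partners of folliculin and of the FNIP proteins moved in both directions. Of 12 tested genes 6 rose and 2 fell (median log2 fold change 0.10), or 8 and 2 with library totals only. Prkab1 and Fem1b gained calls under that scaling, and Gabarap is also counted in the CLEAR list. The GABARAP proteins, which recruit folliculin to lysosomal membranes, were higher in all 3 genes tested: Gabarap rose from 246 ± 12.7 to 395 ± 8.22 CPM (mean ± SD, n = 3 each), Gabarapl1 from 226 ± 2.81 to 339.7 ± 5.73 CPM and Gabarapl2 from 73.8 ± 2.29 to 111 ± 3.61 CPM (adjusted p at most 2.71e-12 in edgeR). Hsp90ab1, a chaperone gene whose protein binds FNIP1, fell from 3893 ± 82.7 to 2564 ± 39.8 CPM. Hsp90aa1, the other HSP90 gene of the list, rose from 1294 ± 51.3 to 1436 ± 93.8 CPM, with groups that overlapped (adjusted p = 0.00207 in edgeR). Of the AMPK subunit genes, Prkag2 rose from 22.7 ± 0.855 to 31.7 ± 0.469 CPM, Prkaa2 rose from 0.954 ± 0.101 to 2.81 ± 0.637 CPM, and Prkab2 fell from 12.4 ± 0.140 to 10.4 ± 0.357 CPM. Prkaa1, Prkab1 and Prkag1 did not pass. In control and MAOA-KO libraries Prkaa1 had 106 and 100 CPM, Prkab1 73.8 and 76.0 CPM and Prkag1 65.8 and 63.8 CPM.

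Of 6 genes for proteins that bind or shed GPNMB, 4 rose and 2 fell. Adam10, a protease that sheds GPNMB from the cell surface, rose from 189 ± 9.78 to 255 ± 13.1 CPM, and Adam17 from 104 ± 4.08 to 129.9 ± 5.52 CPM. The surface receptor Cd44 fell from 493 ± 7.21 to 383 ± 3.40 CPM and the integrin gene Itga5 from 80.1 ± 4.90 to 67.5 ± 1.63 CPM (adjusted p at most 3.80e-05 for these 4 genes in edgeR). The remaining genes of the list rose, Itgb1 from 1078 ± 35.1 to 1266 ± 27.6 CPM and Sdc4 from 360 ± 9.98 to 393 ± 16.0 CPM.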
